A study of Mus musculus with 48 samples.

Results

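The genes described here are 10 transcripts of the integrated stress response: Atf4, Atf5, Ddit3, Atf3, Ppp1r15a, Trib3, Chac1, Sesn2, Asns and Psat1. They were chosen by symbol, as genes known to be controlled by upstream open reading frames or driven by the transcription factor ATF4. Earlier results of these data were known when they were chosen. Each symbol was matched to 1 Ensembl gene of the count tables, so that they are 10 of the 50600 genes listed. All 10 passed the filter on low counts, which 13889 genes passed. The study asked how N6L, a pseudopeptide that antagonizes nucleolin, changed which mRNAs were engaged on ribosomes in mPDAC, a cell line from mouse pancreatic ductal adenocarcinoma. For each of 3 N6L-treated cultures (numbered 1, 2 and 3) and 3 non-treated (NT) cultures (numbered 1, 2 and 4), poly(A)+ RNA was sequenced from the cytoplasm and from pooled polysomal fractions of a sucrose gradient.

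In the labels all cells have the background FVB/N x C57BL6 and the age 8 weeks, and the treatment is given as a nucleolin inhibitor or as control. N6L was applied at 50 µM for 48 h, and every culture, control or not, received emetine before lysis, which holds ribosomes on mRNA. All libraries come from the same cell line, so the cultures do not sample different tumors or animals. The labels number separate cultures, and where these were split from 1 stock the p-values measure only the spread between such cultures. Library totals ranged from 19519911 to 44972333 counts. The lowest count of any of the 10 genes in any library was 1725 (Chac1), so counting error was small beside the spread between cultures. The ductal label was checked: 6 of 8 ductal markers passed the filter, with the keratin genes Krt8, Krt18 and Krt19 at mean levels of 2773, 3464 and 1623 CPM (counts scaled to library size with TMM factors), while Epcam (0.116 CPM) and Cldn4 (0.0320 CPM) were close to 0. Summed endocrine, fibroblast, immune and endothelial markers stayed at or below 2.36 CPM in every library, and the acinar sum of 27.6 to 82.8 CPM came almost wholly from Cela1.

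The integrated stress response starts with kinases that phosphorylate the translation factor eIF2α when amino acids are scarce, proteins misfold or other stresses arise. Phosphorylated eIF2α slows most initiation, yet some mRNAs whose leaders hold upstream open reading frames, of which Atf4 is the classic case, are then translated better. ATF4 protein in turn activates genes for amino acid synthesis and transport and for the feedback that restores translation. Its level is therefore set in large part by translation, and mRNA abundance and polysome engagement are separate readouts.

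ATF4 acts on DNA as a dimer with C/EBP-family proteins, at elements written TGATGNAA. This motif was searched on both strands of 300-base promoter windows of RefSeq (GRCm38.p6), from 250 bases before to 50 bases after the start of each gene. It occurred in 4 of the 10 genes (Atf3, Chac1, Asns and Trib3), or 4 of their 12 windows, and in 3.969% of all 32851 windows. Being driven by ATF4 was part of how the genes were chosen, so a larger share among them is no finding. The stricter form TGATGCAA, which is contained in the first, was found in 2 of the 10 genes (Atf3 and Chac1) and in 0.895% of windows. In Trib3 the first base of the match was at 15, after the RefSeq start. The 3 matches upstream of the RefSeq start, in Atf3, Chac1 and Asns, are shown. Each is printed 5′ to 3′ on the gene's strand with the match in capitals, which for Atf3 and Chac1 is the motif read on the other strand. Atf3 lies at chr1:191183425-191183454 (minus strand), Chac1 at chr2:119351038-119351067 (plus strand) and Asns at chr6:7693214-7693243 (minus strand).
Atf3: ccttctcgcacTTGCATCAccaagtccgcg
Chac1: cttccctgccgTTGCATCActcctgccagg
Asns: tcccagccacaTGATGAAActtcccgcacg
Counted from the RefSeq start, the first base of the match was at -110 in Atf3, -193 in Chac1 and -23 in Asns. A match is a description of letters in a window, and the absence of one says nothing about binding elsewhere.

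The leaders of these mRNAs differed in the features that translational control is known to use. One coding transcript per gene of GENCODE vM21 was read for this, chosen by its APPRIS rank, then CCDS status, then length. Its leader in Atf4 had 594 bases with 3 upstream start codons, 1 of which opened a frame that runs past the start of the coding sequence. Atf5 had 2 upstream starts in 373 bases, again with 1 overlapping frame. Ppp1r15a had 7 in 764 bases, with 1 overlapping frame, and Ddit3 had 2 in 186 bases with none. Atf3, Sesn2, Asns and Psat1 each had 1 upstream start, which in Psat1 opened an overlapping frame. Trib3 and Chac1 had none, in leaders of 176 and 174 bases. Of 11939 genes with an annotated leader, 51.9% had an upstream start and 16.5% an overlapping frame, and among the 10 genes it was 8 and 4. Known control by upstream frames was part of how the 10 were chosen, so these counts are no finding about them. For Atf4, Atf5, Ddit3, Ppp1r15a, Psat1 and Asns these counts depended on the transcript: another one of Asns has a leader of 237 bases with 4 upstream starts.

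All 10 are protein-coding genes with their own loci in GRCm38 (GENCODE vM21). Among the transcription factors, Atf4 lies at chr15:80255184-80257541 (plus strand), Atf5 at chr7:44812256-44816658 (minus strand), Ddit3 at chr10:127290774-127296288 (plus strand) and Atf3 at chr1:191170296-191218039 (minus strand). Ppp1r15a lies at chr7:45522916-45526268 (minus strand), Trib3 at chr2:152337422-152344032 (minus strand), Chac1 at chr2:119351229-119354381 (plus strand) and Sesn2 at chr4:132492032-132510501 (minus strand). The enzymes of amino acid synthesis are Asns at chr6:7675169-7693254 (minus strand) and Psat1 at chr19:15904678-15947337 (minus strand).

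Levels between genes were compared per kilobase of exon (CPM per kb) in the non-treated cytoplasm. Atf4 was the most abundant at 951 ± 34.8 CPM per kb (SD, n = 3), above Atf5 at 486 ± 26.4, and neither range overlapped that of the next gene. Asns (271 ± 16.4), Trib3 (240.2 ± 38.5) and Ddit3 (212 ± 79.4) followed in that order with overlapping ranges, and Ddit3 also overlapped Psat1 (179 ± 6.39). Ppp1r15a (137 ± 40.0) overlapped Atf3 (98.6 ± 36.9), which overlapped Chac1 (67.0 ± 14.2). Sesn2 was the lowest at 31.2 ± 6.10 CPM per kb, below the range of Chac1.

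**Figure D1:**
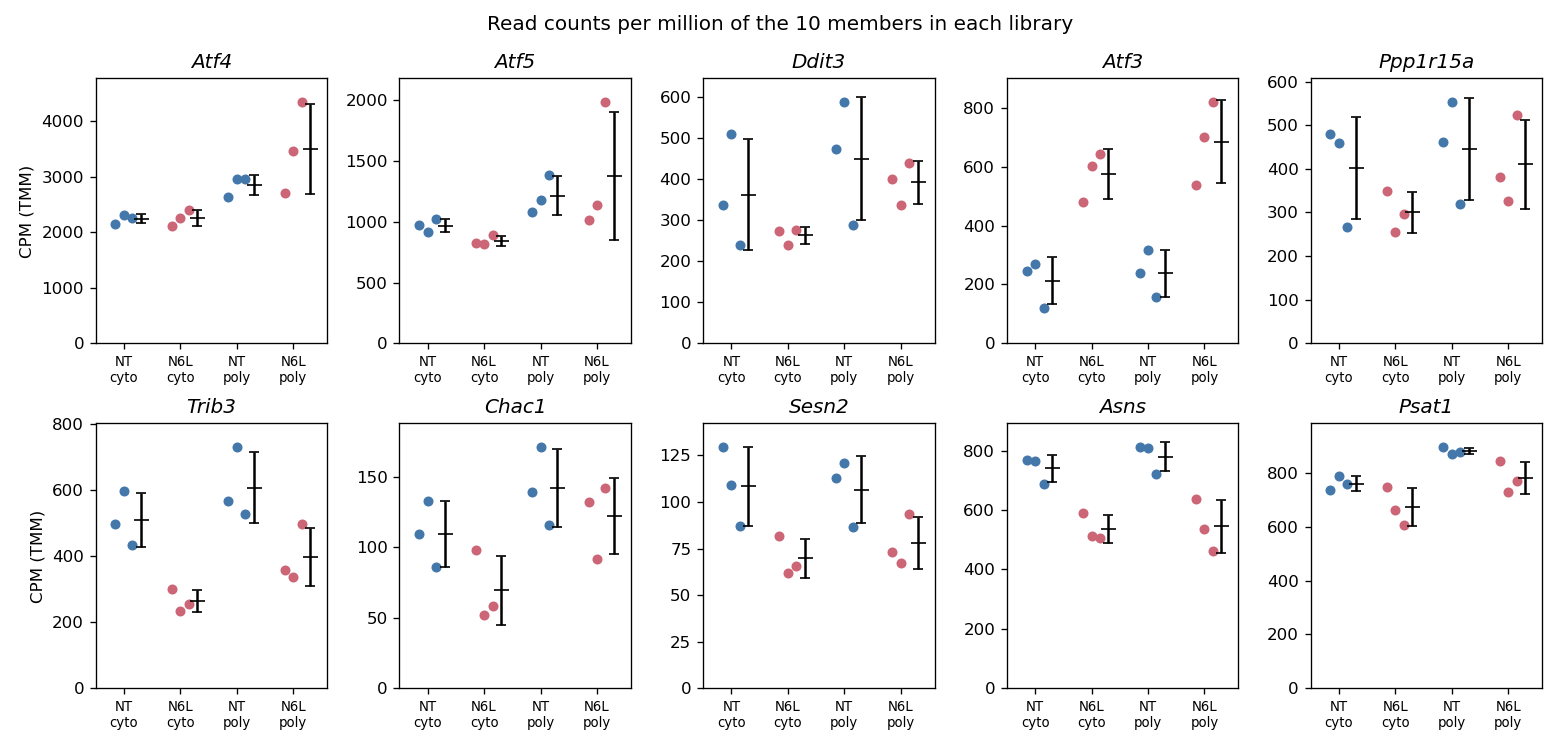
Level of each of the 10 genes in the 12 libraries, in TMM-scaled CPM (linear axis from 0), for cytoplasmic (cyto) and polysomal (poly) RNA of non-treated (NT, blue) and N6L-treated (red) cultures. Points are single cultures in the order of their numbers and the black bar is the mean ± SD of 3; the Atf3 points of N6L-treated cultures lie above all NT points in both fractions, while the Trib3 and Asns points lie below them.

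The first comparison was N6L-treated against non-treated cultures in the cytoplasm, which reads mRNA abundance. Atf3 rose, Trib3, Sesn2 and Asns fell, and the other 6 genes, Atf4 among them, did not pass the test (edgeR quasi-likelihood test, Benjamini-Hochberg adjusted over all genes). Over all genes tested, 14.5% were called higher and 13.8% lower, so 1 of 10 higher and 3 of 10 lower stand beside a background where calls were common. With scaling by library size alone, the calls over all genes split into 2588 higher and 1363 lower, in place of 2013 and 1922. The median log2 change was -0.44 over the 10 genes (-0.28 without NT culture 2) and 0.04 over all genes. In bulk RNA, fewer cells carrying a transcript cannot be told apart from less of it in each cell.

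Among the transcription factors, Atf4 in the cytoplasm measured 2154, 2317 and 2253 CPM in NT cultures 1, 2 and 4, and 2107, 2259.7 and 2399 CPM in N6L cultures 1, 2 and 3. The groups overlapped throughout. The log2 change was 0.01 ± 0.16 (SE; adjusted p = 0.973), and its sign depended on the fit.

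Atf3, a stress-induced factor of the same family, stood at 245, 271 and 122 CPM in NT cultures and at 480.1, 604 and 641 CPM after N6L. Every treated culture was above every non-treated one, and NT culture 4 was the lowest. The change was 2.71-fold (log2 1.44 ± 0.29, adjusted p = 0.00465), and it passed the test in all 16 alternative fits.

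Atf5, which like Atf4 is controlled through its leader, had 971, 915 and 1021 CPM in NT cultures and 825, 815 and 891 CPM in N6L cultures. These ranges did not overlap, but the log2 change of -0.20 ± 0.21 was not called (adjusted p = 0.486). Exons of Atf5 overlap those of Nup62 on the opposite strand. Reads there could be assigned wrongly or left out if strand was not used in counting, which the sources used here do not give. Nup62 had 75257 counts over the 12 libraries and Atf5 384668.

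Ddit3, encoding the pro-apoptotic factor CHOP, varied widely between NT cultures, at 338, 509 and 240.4 CPM. The N6L cultures measured 274, 239 and 277 CPM, within or just under that range. The log2 change was -0.46 ± 0.27 (adjusted p = 0.198). Without NT culture 4, it was -0.71 and passed the test (adjusted p = 0.0285, range over 16 alternatives 0.00829 to 0.782). Without NT culture 2 it was -0.13, as it was with the length and GC correction described below, and it was called in 2 of the 16. Ddit3 shares exon sequence positions with Mars on the opposite strand, which had 70157 counts against 126291 of Ddit3.

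Among Trib3, Sesn2, Chac1 and Ppp1r15a the largest change was in Trib3, a pseudokinase that binds ATF4 and limits its activity. It measured 499, 597 and 435 CPM in NT cultures and 301, 235 and 257 CPM in N6L cultures, with no overlap. Trib3 fell to 0.518 of its non-treated level (log2 -0.95 ± 0.19, adjusted p = 0.00437) and was called in all 16 alternatives.

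Sesn2, a stress-inducible regulator of mTORC1 signaling, measured 129, 109 and 86.9 CPM in NT cultures. All 3 N6L cultures were lower, at 81.8, 62.1 and 65.8 CPM. The log2 change of -0.63 ± 0.19 passed the test (adjusted p = 0.0276). It no longer did without N6L culture 2 (-0.60), NT culture 1 (-0.49) or NT culture 2 (-0.63), or with scaling by library size alone (-0.50).

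Chac1, which degrades glutathione, had 109.7, 133 and 86.4 CPM in NT cultures and 97.8, 52.3 and 58.3 CPM in N6L cultures. Only N6L culture 1 fell within the NT range. The log2 change was -0.66 ± 0.25 and narrowly missed the threshold (adjusted p = 0.0631); without N6L culture 1 it was -0.99 and passed. DESeq2 also called it (-0.69). It was called in 5 of 16 alternatives, and was smallest with the length and GC correction (-0.35).

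Ppp1r15a, encoding the GADD34 subunit that directs the phosphatase to eIF2α, measured 479.7, 460.1 and 267 CPM in NT cultures. The N6L cultures had 350.0, 256 and 296 CPM, and the groups overlapped through NT culture 4. The log2 change was -0.42 ± 0.25 (adjusted p = 0.218), and -0.67 without NT culture 4, which passed the test, and -0.28 without NT culture 1. The overlapping opposite-strand gene Tulp2 had 813 counts over the 12 libraries and Ppp1r15a 134861.

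Both enzymes of amino acid synthesis had lower mean levels after N6L. Asns, asparagine synthetase, measured 767, 766 and 689 CPM in NT cultures and 589, 513 and 506 CPM in N6L cultures. Asns fell (log2 -0.47 ± 0.15, adjusted p = 0.0310) with no overlap between the groups. The call was lost without N6L culture 2, NT culture 1 or NT culture 2 (values from -0.48 to -0.44), with the length and GC correction (-0.35), with library size scaling (-0.32) and without a filter on low counts (-0.42). Psat1, a phosphoserine aminotransferase of the serine pathway, measured 734, 788 and 756 CPM in NT cultures. With 748, 662 and 607 CPM in N6L cultures, its log2 change was -0.18 ± 0.13 (adjusted p = 0.317). Its near copy, the pseudogene Gm12611 (90.7% identical over 1059 bases), had only 12 counts in all.

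Cytoplasmic levels of N6L-treated and NT cultures did not overlap for 5 of the 10 genes (Atf3 higher, and Atf5, Trib3, Sesn2 and Asns lower), against 54.9% of all genes tested.

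The same comparison in polysomal RNA asks which mRNAs made up more or less of the mRNA on ribosomes. Levels were scaled within each library, so a general loss of polysomes does not show in them. The paper reports a strong decrease of polysome peaks and lower protein synthesis after N6L. Atf3 was higher and Asns lower, and no other gene of the 10 passed the test. In this fraction 6.01% of all genes were called higher and 3.66% lower, and the median log2 change was -0.19 over the 10 genes and 0.00 over all genes. The median over the 10 was -0.01 when NT culture 2 was left out and -0.08 when N6L culture 2 was left out. It was -0.31 when either N6L culture 3 or NT culture 4 was left out. Library size scaling moved the split over all genes from 835 higher and 508 lower to 1082 and 312.

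Polysomal Atf4 measured 2634, 2949 and 2963 CPM in NT cultures and 2708, 3461 and 4332 CPM in N6L cultures. N6L cultures 2 and 3 were above all NT cultures and culture 1 was among them. The log2 change was 0.30 ± 0.16 (adjusted p = 0.259).

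Atf3 on polysomes stood at 238, 318 and 159 CPM in NT cultures and 537, 700.0 and 818 CPM in N6L cultures. The 2.88-fold change (log2 1.52 ± 0.29, adjusted p = 0.00769) was close in size to that in the cytoplasm. Left without N6L culture 2 or NT culture 1, the value stayed at 1.51 and 1.52, with adjusted p of 0.0602 and 0.0606, above the limit of 0.05 (range over 16 alternatives 8.34e-13 to 0.0606).

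Polysomal Asns was 810.3, 807 and 722 CPM in NT cultures and 638, 535 and 462 CPM in N6L cultures. It fell by 0.52 ± 0.15 on the log2 scale (adjusted p = 0.0418), with no overlap. This call was lost on leaving out any single culture other than N6L culture 1 (values from -0.56 to -0.41).

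Trib3 on polysomes also did not overlap between groups, with 567, 729.9 and 528 CPM in NT cultures and 358, 338 and 498 CPM in N6L cultures. Its log2 change of -0.61 ± 0.19 lay just outside the threshold (adjusted p = 0.0576), and without N6L culture 3, the highest of the treated cultures, it was -0.80 and was called. DESeq2 (-0.63) called it too.

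Psat1 had 894, 869 and 878 CPM in NT and 845, 728 and 769 CPM in N6L polysomes, a small separation that was not called (-0.17 ± 0.13, adjusted p = 0.425). The remaining genes overlapped between groups. Their log2 changes were 0.18 ± 0.21 for Atf5, -0.20 ± 0.26 for Ddit3, -0.12 ± 0.25 for Ppp1r15a, -0.21 ± 0.25 for Chac1 and -0.45 ± 0.19 for Sesn2 (adjusted p from 0.155 for Sesn2 to 0.807 for Ppp1r15a). For Atf5 the treated values were uneven, at 1013, 1139 and 1983 CPM, and without N6L culture 3 the change was -0.18. Groups did not overlap for 4 of the 10 genes (Atf3, Trib3, Asns and Psat1), against 25.6% of all genes.

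**Figure D2:**
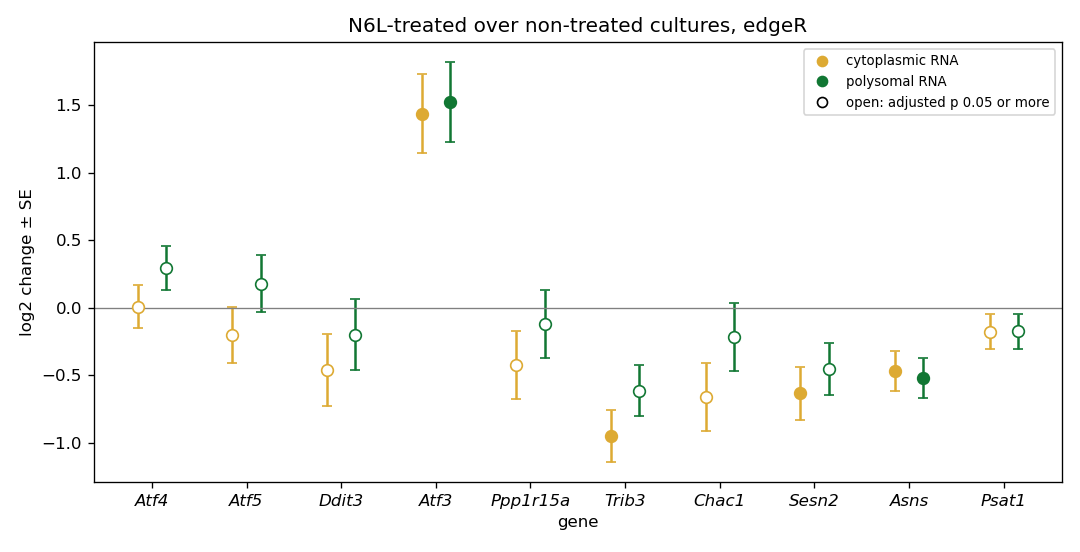
Log2 change (vertical axis) of N6L-treated over non-treated cultures for each gene, in cytoplasmic (yellow) and polysomal (green) RNA, as fitted by edgeR with standard errors from 3 cultures per group. Filled points passed an adjusted p of 0.05: Atf3 in both fractions (1.44 and 1.52), Trib3 and Sesn2 in the cytoplasm (-0.95 and -0.63) and Asns in both (-0.47 and -0.52).

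Polysome engagement was read as the ratio of polysomal to cytoplasmic level, and the fractions of a culture came from 1 lysate. Both levels were scaled within their library, so a ratio is relative to other mRNAs and does not give the absolute share on ribosomes. In non-treated cultures none of the 10 genes passed the test, where 0.209% of all genes did. At an unadjusted p below 0.05 there was 1 of 10 (Atf4, log2 0.35 ± 0.16), beside 13.4% of all genes, and DESeq2 called none of the 10. The ratio was above 0 on the log2 scale in all 3 NT cultures for 7 of the 10 genes, against 31.6% of all genes. The fitted values ran from -0.02 for Sesn2 to 0.37 for Chac1, with a median of 0.23.

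In N6L-treated cultures, Atf4, Atf5, Trib3 and Chac1 were higher in polysomes than in the cytoplasm. This was 4 of 10, beside 18.4% of all genes called higher, and none was lower. With the culture as a block, 6 were called, Ddit3 (0.57) and Ppp1r15a (0.43) being added, where 26.1% of all genes were called higher. The ratio was above 0 in all 3 treated cultures for 8 of the 10 genes (all but Asns and Sesn2), against 37.6% of all genes. The median over the 10 genes was 0.51 (0.30 without N6L culture 3), and over all genes it was 0.03.

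Atf4 had log2 ratios of 0.36, 0.62 and 0.85 in N6L cultures 1, 2 and 3, and 0.29, 0.35 and 0.40 in NT cultures 1, 2 and 4. Culture 1 was among the NT values and culture 3 was furthest above them. The fitted polysome change in treated cultures was 0.63 ± 0.16 (1.55-fold, adjusted p = 0.00987).

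Atf5 was similar in order, with 0.30, 0.48 and 1.15 in N6L cultures and 0.15, 0.37 and 0.44 in NT cultures. Its fitted value in treated cultures, 0.71 ± 0.21 (adjusted p = 0.0184), fell to 0.39 without culture 3.

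Trib3 gave 0.25, 0.52 and 0.95 in N6L cultures, against 0.18, 0.29 and 0.28 in NT cultures (fitted 0.59 ± 0.19, adjusted p = 0.0260). Of these 4 genes Chac1 had the highest ratios in every treated culture, at 0.44, 0.81 and 1.28 in N6L cultures, each above the NT values of 0.34, 0.36 and 0.42. The fitted value of Chac1 was 0.82 ± 0.25 (1.76-fold, adjusted p = 0.0220). In all 4 of these genes N6L culture 3 was highest and culture 1 lowest.

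Ddit3 had ratios of 0.55, 0.49 and 0.67 in N6L cultures and 0.49, 0.20 and 0.27 in NT cultures (fitted 0.58 ± 0.27 in N6L cultures, adjusted p = 0.0971). Ppp1r15a was spread widely in both groups, from 0.12 to 0.82 in N6L and from -0.06 to 0.26 in NT cultures. Atf3 (0.25 ± 0.29), Psat1 (0.22 ± 0.13), Sesn2 (0.16 ± 0.19) and Asns (0.02 ± 0.15) were not called in N6L cultures.

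**Figure D3:**
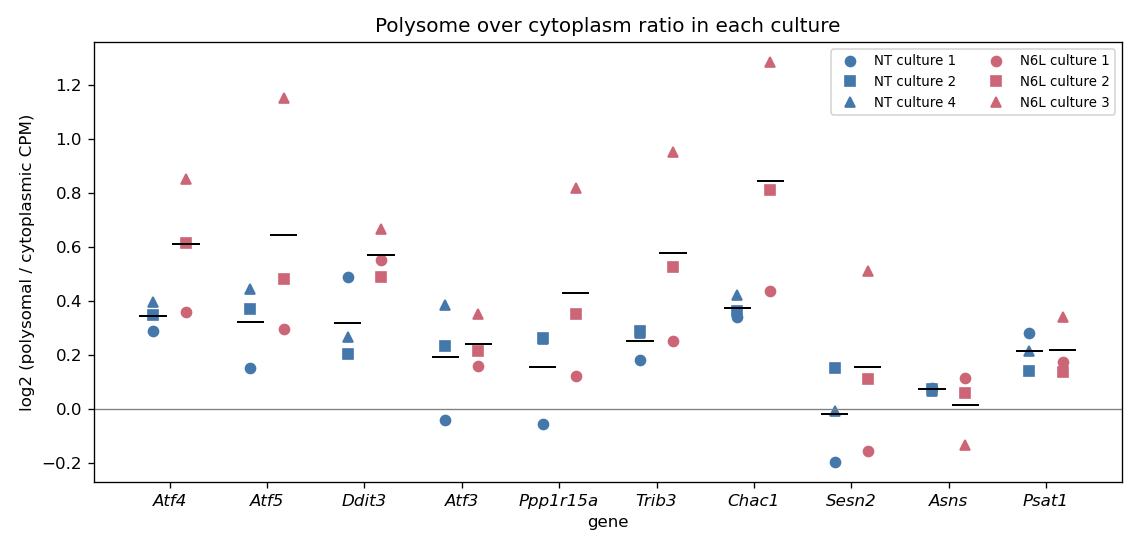
Log2 ratio of polysomal to cytoplasmic CPM (vertical axis) for each gene and culture, with NT cultures in blue, N6L-treated cultures in red, a symbol for each culture and a black line at the mean of 3. N6L culture 3 is the highest red point for every gene but Asns, and for Chac1 it reaches 1.28 where NT cultures lie between 0.34 and 0.42.

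None of these 4 calls was kept without N6L culture 2 or without N6L culture 3. Without culture 3 the values were 0.50 for Atf4, 0.39 for Atf5, 0.38 for Trib3 and 0.58 for Chac1, and without culture 2 they were 0.67, 0.83, 0.64 and 0.84. The number of all genes called in either direction also fell, from 5415 to 1653 and 1153. Scaling by library size alone left 2 of the 4 (Atf4 and Atf5) and changed the split over all genes from 2559 higher and 2856 lower to 1762 and 3119.

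Transcript length and GC content moved with this result. All but Sesn2 of the 10 genes have a transcript shorter than the median gene tested (3102 bases), and 7 of 10 have a GC content above the median of 49.8%, led by Atf5 at 61.7%, the 97.9th percentile. With an offset per library for length and GC content, none of the 10 genes was called in N6L-treated cultures, where 8.91% of all genes were called higher. The values were then 0.09 for Atf4, -0.03 for Atf5, 0.01 for Trib3 and 0.19 for Chac1, and the median over the 10 genes was 0.03. With the offset and the culture as a block together, a fit added after seeing the data, only Ddit3 was called (0.30, adjusted p = 0.0165, range over 17 alternatives 0.00235 to 0.544), where 16.1% of all genes were called higher. What length and GC content contribute to the ratios was not tested beyond these fits.

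**Figure D4:**
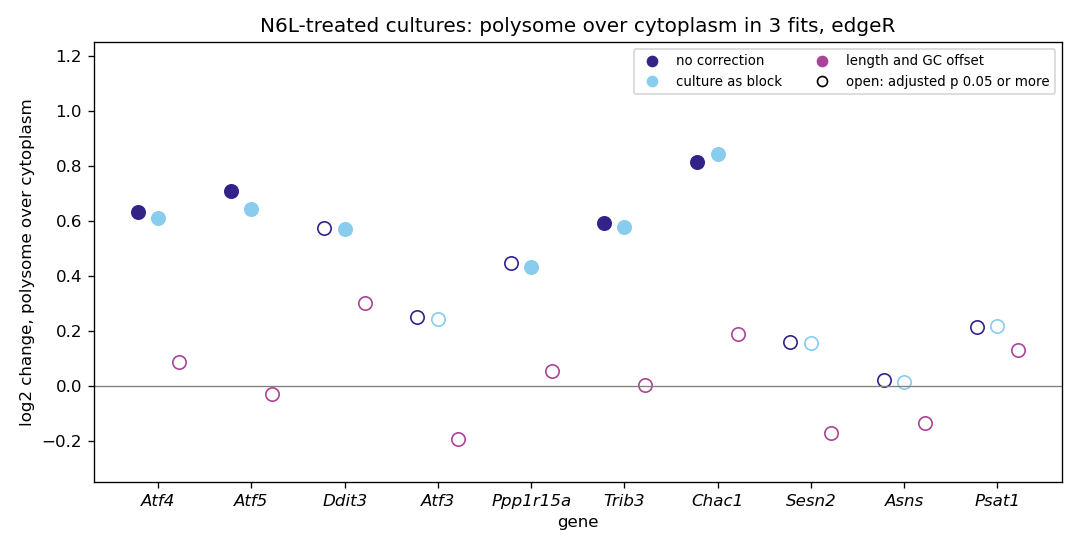
Log2 change of polysomal over cytoplasmic RNA (vertical axis) in N6L-treated cultures for each gene, fitted by edgeR without correction (dark blue), with the culture as a block (light blue) and with an offset for transcript length and GC content (purple). Filled points passed an adjusted p of 0.05; the 4 filled dark blue points run from 0.59 to 0.82, and no purple point is filled.

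The translational index (TI) compares the polysome-to-cytoplasm ratio of N6L-treated with that of non-treated cultures, and so tests whether the engagement described above differed with treatment. None of the 10 genes passed, and of all genes 0% did, in edgeR as in DESeq2. At an unadjusted p below 0.05 there were 0 of 10 in both tools, beside 7.73% of all genes in edgeR. The log2 index was 0.44 ± 0.36 for Chac1, 0.38 ± 0.30 for Atf5, 0.34 ± 0.27 for Trib3, 0.30 ± 0.36 for Ppp1r15a, 0.29 ± 0.23 for Atf4 and 0.26 ± 0.37 for Ddit3. Sesn2 (0.18 ± 0.27), Atf3 (0.09 ± 0.41), Psat1 (0.00 ± 0.18) and Asns (-0.05 ± 0.21) were closer to 0. With the culture as a block, which uses that both fractions share a lysate, again none of the 10 passed. Chac1 then had the lowest p (index 0.47, unadjusted p = 0.0519 and adjusted p = 0.235 in edgeR, range over 16 alternatives 0.235 to 0.996). A p above the threshold does not show equal ratios. The paper reports genes with a significantly changed index, down more often than up, at its own cut-offs. Its calculation was not repeated here.

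By culture, the ratios did not overlap between treatments for 2 of the 10 genes, Ddit3 and Chac1, against 29.7% of all genes. For both the exact two-sided permutation test gave p = 0.1, the smallest that 3 cultures against 3 allow. For Atf4 it gave p = 0.2, and for the others p from 0.3 to 1. The median index was 0.28 over the 10 genes and 0.01 over all genes. It was 0.07 without N6L culture 3 and -0.05 with the length and GC offset, under which the indices of Atf4 (-0.06), Atf5 (-0.14) and Trib3 (-0.05) were below 0.

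Genes of the wider pathway were read from lists drawn up beside the 10. Earlier results of these data were known when the lists were chosen, so their counts beside the shares of all genes are descriptions only. Of 12 further genes of amino acid and one-carbon synthesis, 7 fell in the cytoplasm and none rose, with a median log2 change of -0.66, beside 13.8% of all genes called lower. The count was 4 without N6L culture 2 or without NT culture 1. Psph, the last enzyme of serine synthesis, went from 326 ± 49.4 to 138 ± 2.35 CPM (SD, n = 3). Its log2 change in edgeR was -1.24 ± 0.17 (adjusted p = 0.000958). Mthfd2, a mitochondrial folate enzyme, fell by 1.00 ± 0.15, and Phgdh, which opens the serine pathway upstream of Psat1, by 0.83 ± 0.18, a call that was lost with the length and GC offset (-0.57). Cth, Pck2, Pycr1 and Shmt2 were the other 4. On polysomes 3 of the 12 were lower (Cth, Mthfd2 and Psph), beside 3.66% of all genes. Over the alternatives this count ran from 1 (as without N6L culture 2 or NT culture 1) to 5 (as with the length and GC offset).

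Amino acid transporters, which ATF4 also controls, gave no call in the cytoplasm among 9 tested. In edgeR 1 of the 9 had an unadjusted p below 0.05, beside 5907 of all 13889 genes. DESeq2 called 1 of the transporters lower, and the length and GC offset 3. Of 13 genes that charge tRNAs, 2 fell in the cytoplasm, Yars (-0.46 ± 0.15) and Sars (-0.46 ± 0.15), a share close to the 13.8% of all genes. Each was called in 10 of 16 alternatives, and neither was with library size scaling, without a filter, or without N6L culture 2, NT culture 1 or NT culture 2. On polysomes all 13 log2 changes were below 0 (median -0.49), where 50.08% of all genes were above 0. In edgeR 9 of the 13 had an unadjusted p below 0.05, beside 3684 of all 13889 genes. Called lower were 2 (Gars and Yars), beside 3.66% of all genes. With the length and GC offset, where 1356 of 13889 genes were called lower, that count was 10. Leaving out N6L culture 1 made it 6, leaving out culture 3 made it 1, and leaving out any other single culture made it 0. Among 15 other stress targets tested, 1 rose and 4 fell in the cytoplasm, beside 14.5% and 13.8% of all genes. Tnfrsf10b, a death receptor gene, rose from 23.5 to 56.3 CPM (log2 1.26 ± 0.17, adjusted p = 0.000765). Eif4ebp1, an inhibitor of cap-dependent initiation, fell by 1.16 ± 0.22 and Gdf15, a secreted stress cytokine, by 0.86 ± 0.25. Gdf15 was not called with the length and GC offset (-0.46), nor without N6L culture 2 or NT culture 1. The other 2 that fell were Jdp2 and Nupr1. In N6L-treated cultures 6 of these 15 were higher in polysomes than in the cytoplasm and 2 were lower (Tnfrsf10b and Vldlr), beside 18.4% and 20.6% of all genes. Without N6L culture 2 or without N6L culture 3 these counts were 2 and 0, and with the length and GC offset the median of the list went from 0.47 to 0.01.

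Upstream of eIF2α, 2 of 9 genes rose in the cytoplasm, both encoding eIF2α kinases, where 14.5% of all genes did. Eif2ak3 (PERK) rose by 1.12 ± 0.26 and Eif2ak4 (GCN2) by 0.74 ± 0.22 on the log2 scale, the latter by 0.43 with the length and GC offset. The count ran from 0 (without N6L culture 2) to 4 (as without N6L culture 3) over the alternatives, and was 1 without NT culture 1 or NT culture 4. In polysomes against cytoplasm of N6L-treated cultures 4 of the 9 were lower (Eif2ak2, Eif2ak4, Gcn1l1 and Impact), beside 20.6% of all genes. That count was 1 without N6L culture 2 or 3. With the length and GC offset 1 was lower (Eif2ak2) and 1 higher (Dele1), and the median of the 9 genes went from -0.59 to -0.28. Of 4 other mRNAs known for upstream frames, 1 was called higher in the cytoplasm, beside 14.5% of all genes. This was Ifrd1 (0.89 ± 0.25, adjusted p = 0.0176 in edgeR), which was not called without N6L culture 2 or NT culture 4. In polysomes against cytoplasm of N6L-treated cultures 2 of the 4 were higher (Cebpa and Slc35a4), beside 18.4% of all genes. This was 0 of the 4 without N6L culture 2 or 3, and also with the length and GC offset. In the ATF6 and XBP1 arms of the unfolded protein response, 1 of 14 genes was called lower, beside 13.8% of all genes. This gene, Manf, fell by 0.60 ± 0.15 in the cytoplasm and was not called without N6L culture 2 or with library size scaling.

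The genes most like Atf4, Atf5 and Trib3 across the 12 libraries were found among the 8958 genes whose mean reached 10 CPM, by the root-mean-square difference of log2 CPM centred on each gene's mean. For Atf4 these included Trmt61b (0.070) and Traf4 (0.073). For Atf5 they were Gpatch3 (0.068), Ubl7 (0.070) and Sumo3 (0.072). For Trib3 they were Jdp2 (0.115), Mib2 (0.122) and Phgdh (0.135), of which Jdp2 and Phgdh are on the lists above. Of the 10 genes, Atf5 was the one nearest to Atf4, with a difference of 0.152 and rank 302. Sesn2 (rank 114) and Chac1 (rank 129) were nearest to Trib3, and Atf3 was far from all of them, at rank 7967 from Atf4 and 8787 from Trib3.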

How the data were processed

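Per the submitters' notes and the paper, the authors demultiplexed reads with bcl2fastq 2.18.0.12, aligned them with STAR to mm10 and counted reads per gene with HTSeq 0.5.3. The deposited counts are raw, for 4 technical replicates of each of 12 libraries, which were summed, since their chi-square over its degrees of freedom was 1.02 to 1.04, about what sampling gives. For the counting, annotation and strand setting: not given in the sources used here. Labels of 3 technical replicates disagree on the culture number; they were kept with N6L culture 2.

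After filterByExpr and TMM scaling, genes were fitted in edgeR 4.0.16 (R 4.3.3; glmQLFit, glmQLFTest) on all 12 libraries with 1 mean per group, and p-values were adjusted by Benjamini-Hochberg over 13889 genes with a limit of 0.05. DESeq2 1.42.0 was an alternative. Fold changes are log2 with standard errors. Ratios per culture are log2 CPM differences (prior count 2). The scripts were tested on simulated data. The fractions of a culture come from 1 lysate, and their deviations from group means correlated at 0.037 to 0.645.

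The length and GC offset was a spline fit (5 degrees of freedom each) per library over 13867 genes. Symbols, leaders, lengths and overlaps are from GENCODE vM21 (50376 of 50600 genes matched), near copies from blastn 2.17.0 and promoters from RefSeq. The 10 genes and all lists were chosen with earlier results of these data known. Named beside the 10 were up to 3 genes per list with the largest cytoplasmic change among those called with a mean of 10 CPM or more, the genes nearest in pattern to Atf4, Atf5 and Trib3 (1 of which is not reported here), markers, and genes overlapping a member. The other names were added to complete counts after their values were seen.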

Additional observations from a re-analysis of the deposited data

How the results depend on the processing

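Over the 10 genes, 820 values were recomputed under 18 alternatives, each where it applied. Of these, 710 kept their direction and their side of the limit, 37 lost a call, 23 gained one and 50 changed sign, 2 of them from a called value (Atf5 in N6L polysomes under both length and GC offsets). The stricter filter and leaving out 3 technical replicates with conflicting labels changed no call or sign of a member. The cause of a change was not tested in any of these fits. Library size scaling moved the median of all genes from 0.04 to 0.19 in the cytoplasm and from 0.03 to -0.11 in polysomes against cytoplasm of N6L cultures, so changes are to be read against these shifts. No member had under 1725 counts in a library, so counting error was small.

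With 1 culture left out at a time, members called lower ran from 1 to 5 in the cytoplasm and from 0 to 1 on polysomes, members called higher from 0 to 1 on polysomes and from 0 to 5 in polysomes against cytoplasm of N6L cultures, and the median index from 0.073 to 0.37. The median over the members ran from -0.61 to -0.28 in the cytoplasm, from -0.31 to -0.0092 on polysomes and from 0.30 to 0.60 in polysomes against cytoplasm of N6L cultures. Values that changed sign ran from -0.039 to 0.057 for Atf4 in the cytoplasm. On polysomes they ran from -0.18 to 0.36 for Atf5, -0.42 to 0.041 for Ddit3 and -0.33 to 0.070 for Ppp1r15a. In polysomes against cytoplasm they ran from -0.12 to 0.084 for Sesn2 in NT cultures, and in N6L cultures from -0.033 to 0.090 for Asns and -0.033 to 0.33 for Sesn2. The index ran from -0.029 to 0.19 for Atf3, -0.11 to 0.016 for Asns, -0.053 to 0.082 for Psat1 and -0.010 to 0.35 for Sesn2.

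Cytoplasmic Atf4 was -0.026 with RLE scaling and in DESeq2, -0.0040 from technical replicate a alone and -0.031 with only the 2 groups compared. On polysomes, members called lower were 2 with RLE and in DESeq2, and 0 with only the 2 groups compared. DESeq2 called 2034 genes on polysomes in place of 1343, and 281 in place of 29 in polysomes against cytoplasm of NT cultures. With library size scaling, members called lower were 1 in the cytoplasm and 0 on polysomes, members called higher in N6L polysomes were 2, the NT median was 0.16, Asns in N6L polysomes was -0.10 and the index of Psat1 was -0.055. Without a filter the index of Psat1 was -0.032, and 114 of 25915 genes passed for the index, none of the 10 among them.

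With the length and GC offset, Atf5 in the cytoplasm was 0.16, Ddit3 on polysomes 0.0018, and 3 members were called lower on polysomes. In polysomes against cytoplasm of NT cultures, Atf3 was -0.038, Asns -0.018 and the median 0.083. In N6L cultures 0 members were called, with a median of 0.029, Atf3 at -0.19, Atf5 at -0.029, Asns at -0.14 and Sesn2 at -0.17. The index was -0.062 for Atf4, -0.16 for Atf3, -0.14 for Atf5, -0.051 for Trib3, -0.022 for Psat1 and -0.048 for Sesn2, with a median of -0.050.

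The culture as a replicate block, which pairs the fractions of 1 lysate, added the calls of Ddit3 (0.57) and Ppp1r15a (0.43) in N6L cultures and changed no other call of a member. Together with the length and GC offset, a fit chosen after seeing the data, the replicate block gave Atf3 at -0.0002, Asns at -0.016 and a median of 0.086 in NT cultures. In N6L cultures it gave 1 member called, a median of 0.027, Atf3 at -0.19, Atf5 at -0.029, Asns at -0.15 and Sesn2 at -0.17. The index was then -0.062 for Atf4, -0.19 for Atf3, -0.14 for Atf5, -0.058 for Trib3, -0.021 for Psat1 and -0.052 for Sesn2, with a median of -0.055. A replicate block by culture number across treatments, which share only a number (correlations of 0.228 and 0.0455 in the cytoplasm, 0.296 and 0.00756 on polysomes), gave 6 members called lower in the cytoplasm, 3 on polysomes, and Atf4 at -0.080 in the cytoplasm.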
